A study of Mus musculus with 7 samples.

Results

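Expression of 10 genes of insulin receptor signalling was followed from the receptor to the FoxO transcription factors in the brown fat of 3-day-old mice, either with Gyk knocked out (KO) or wild type (WT). Gyk encodes glycerol kinase, which lets fat cells reuse glycerol. The genes were the receptor gene Insr, the docking protein genes Irs1 and Irs2, the adaptor gene Grb10, the phosphoinositide 3-kinase (PI3K) subunit gene Pik3r1, the kinase genes Akt1 and Akt2, and Foxo1, Foxo3 and Foxo4. They were chosen by name, with earlier results of these data known. All 28 probe sets paired with 1 of them alone were taken, out of 45037 probe sets on which 18193 genes are named. All samples are labelled as male C57BL/6J. There are 7 arrays, 1 per total RNA sample: KO replicates 1 to 4, and as controls wild-type replicates 1, 3 and 4. The labels give neither the KO allele nor the cell types that carry it, and the array of KO replicate 1 was placed in its group by its title. They number the replicates without saying that each is a separate animal, so the spread behind each p-value is that among these samples and may be technical. Genotypes are those of the labels, since the level of Gyk itself is not analysed here.

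Insulin binds a receptor tyrosine kinase that phosphorylates the docking proteins Irs1 and Irs2. These recruit PI3K through its regulatory subunit, the lipid it makes brings Akt kinases to the membrane, and Akt phosphorylates FoxO factors, which then leave the nucleus. In brown fat this pathway drives glucose uptake, lipid storage and fat cell differentiation, and FoxO factors, active when insulin is low, switch on genes of cell cycle arrest, autophagy and atrophy, as well as Insr and Irs2 themselves. The arrays measure messenger RNA, not the phosphorylation by which the pathway signals.

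The deposited values are signals in array units, scaled alike on all arrays (array medians 131.2 to 153.7), and their number limits the precision of every value. The brown fat markers Ucp1 (26887 to 37577 signal units), Cidea (22274 to 29639) and Cox8b (26884 to 34130) were among the bright signals of every array, and 0 of 7 brown adipocyte markers passed the test (0 also at an unadjusted p under 0.05 by limma). The array labelled KO replicate 2 stood apart: it correlated best with wild-type replicate 1 (r = 0.975 across probe sets), and the female-specific RNA Xist read 893 and 2757 on it with 2 probe sets, against at most 13.1 and 273 on the other arrays, despite its label as male. Its Xist signal with the remaining probe set (93) was also above the other arrays (at most 43.5). Eif2s3y, on the Y chromosome, gave 1251.5 there with its bright probe set, within the 1210.0 to 1566 of the other arrays, so this array showed both signals. Results are therefore given with and without it. Arrays were deposited in 2 ranges of accessions, wild-type replicate 1 with KO replicates 1 and 2, and the other 4 arrays together (the second range).

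In KO brown fat 1 probe set of Foxo4 and 1 of Foxo3 passed as higher, and none of the genes from the receptor to Akt passed the test. Foxo4 was up 1.71-fold on the brighter of its 2 tested probe sets. Foxo3 was up 1.72-fold on the less bright of its 2, while the brighter differed by 0.15 (limma, adjusted p = 0.775). Both calls were lost when any 1 array other than KO replicate 2 was left out. The 3 tested Foxo1 probe sets were 1.36-fold to 1.69-fold higher without passing. Pik3r1 was 1.33-fold to 1.47-fold higher on its 4 probe sets, and Akt2 was 1.08-fold to 1.24-fold lower on its 3, none of which passed. Of the 28 probe sets, 24 were bright enough to be tested, at least 1 for each gene, and 2 of the 24 passed, both higher (limma, Benjamini-Hochberg adjusted p under 0.05 over 27022 probe sets), against a background of 1.59% of all tested probe sets in both directions, 0.951% higher and 0.644% lower. Of the 24 log2 differences 14 were positive, against 50.1% of all tested. At an unadjusted p under 0.05 there were 11 of 24, against 16.5% of all tested probe sets. Several of the 11 belong to the same gene and are not independent readings. As the genes were chosen with earlier results known, these counts are a description and no test of the group. The KO arrays all read above the wild-type arrays in 6 of the 24 (7.48% of all tested probe sets) and all below them in 2 (7.25%). Of the 6, 5 belonged to the FoxO genes, which had 7 tested probe sets. Among these 5 were 3 Foxo1 probe sets designed from the same sequence record, which are not independent readings. In bulk tissue, more or fewer cells of a type cannot be told apart from more or less RNA per cell.

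**Figure D1:**
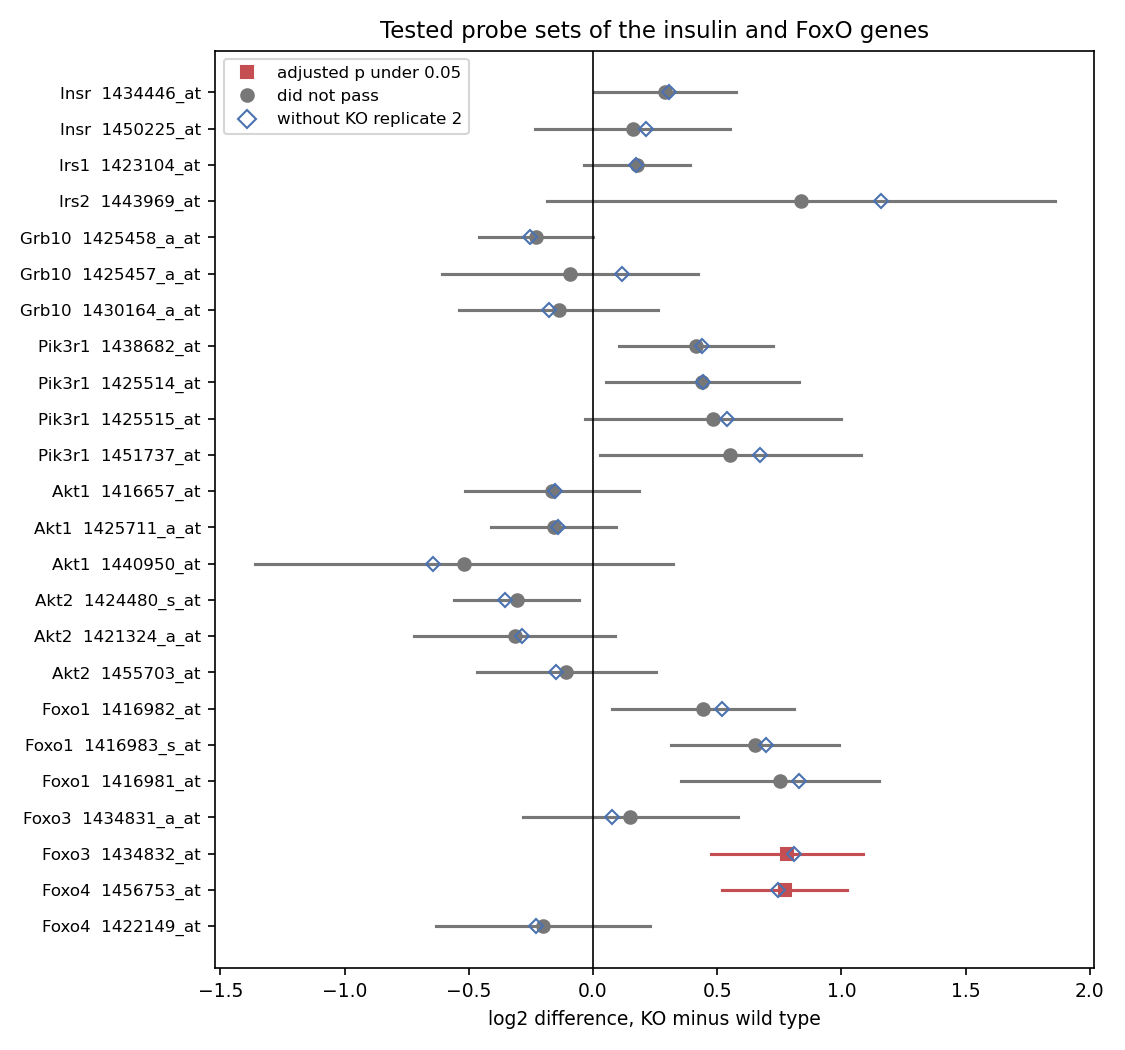
Log2 difference, KO minus wild type, of the 24 tested probe sets, with its 95% confidence interval from the fit on all 7 arrays (squares passed, circles did not) and the value without KO replicate 2 (open diamonds). The intervals of Foxo4 1456753_at (0.52 to 1.02) and Foxo3 1434832_at (0.48 to 1.09) lie farthest from 0, and with all 7 arrays the 10 differences of Grb10, Akt1, Akt2 and the second Foxo4 probe set are below 0.

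Insr, the insulin receptor, was read out by 2 tested probe sets. The brighter one, 1434446_at, read 1279, 1299.9 and 1139 on wild-type replicates 1, 3 and 4 and 1271, 1469.8, 1719 and 1655 on KO replicates 1 to 4. KO replicate 1 lay within the wild-type range and the other 3 KO arrays above it. The log2 difference was 0.29 ± 0.13 (SE; 95% interval 0.00 to 0.57, adjusted p = 0.295), and 0.30 without KO replicate 2. The other, 1450225_at, differed by 0.16 (adjusted p = 0.727), and the third, 1421380_at, read 28.3 to 82.6 and was too dim to be tested.

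Irs1, the main docking protein of the receptor in fat cells, has 1 probe set. It read 2065, 2123.5 and 1974 in wild type and 2185, 2355.5, 2384 and 2385 in KO. The KO arrays lay above the wild-type arrays without overlap, by a small amount: the log2 difference was 0.18 ± 0.10 (95% interval -0.04 to 0.39) and did not pass (adjusted p = 0.406).

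Irs2, a second docking protein and a known FoxO target, varied most among the 10 genes. Its probe set read 116, 449 and 279 in wild type and 345.5, 224, 642 and 930.2 in KO, so both groups spread widely and overlapped. The log2 difference of 0.84 ± 0.46 did not pass (adjusted p = 0.41; 1.16 with adjusted p = 0.141 without KO replicate 2). With the deposit range as a covariate it was 1.07 and passed (adjusted p = 0.0408). Without wild-type replicate 1, whose signal was the lowest, it fell to 0.37.

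The promoters of both docking protein genes are shown for the insulin response motif, through which FoxO factors are known to act. A FoxO effect on either gene was not tested here, nor was a larger difference in FoxO genes than in the others. The motif is spelled CAAAACA, or TGTTTTG on the other strand. The windows are the 250 bases before the annotated start (RefSeq, GRCm38.p6), read 5′ to 3′ on the gene's strand, with capitals for that motif, for the E-box CACGTG and for CCAAT or ATTGG. A window was found for 8 of the 10 genes, not for Insr or Foxo4.
Irs1 (chr1:82291440-82291689, minus strand): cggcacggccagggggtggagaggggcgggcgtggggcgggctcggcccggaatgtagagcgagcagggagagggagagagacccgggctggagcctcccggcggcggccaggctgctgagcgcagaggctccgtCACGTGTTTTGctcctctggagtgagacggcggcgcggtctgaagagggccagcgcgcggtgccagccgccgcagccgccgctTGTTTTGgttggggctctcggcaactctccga
Irs2 (chr8:11008930-11009179, minus strand): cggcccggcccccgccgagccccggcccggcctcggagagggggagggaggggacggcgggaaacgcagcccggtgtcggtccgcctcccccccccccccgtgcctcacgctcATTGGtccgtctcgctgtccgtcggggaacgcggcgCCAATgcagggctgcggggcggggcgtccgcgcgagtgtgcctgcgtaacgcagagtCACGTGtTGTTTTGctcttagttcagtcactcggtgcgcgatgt
Irs1 holds TGTTTTG at -111 to -105, overlapping an E-box at -115 to -110, and again at -32 to -26 (positions count back from -1, the last base before the start). In Irs2 the E-box at -44 to -39 is followed by TGTTTTG at -37 to -31. Of 32851 such windows 5.56% hold the insulin response motif and 6.02% an E-box, on either strand, and no other member window holds either. The longer FoxO consensus GTAAACA, or TGTTTAC, was found in 1 member window, that of an Akt1 start, and in 3.17% of all windows. A match describes letters and shows no binding.

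Grb10, an imprinted adaptor that binds the receptor and dampens its signal, read 3902, 4178 and 3687 in wild type and 3031, 3511, 3254 and 3579 in KO on its brightest probe set, 1425458_a_at. All KO arrays lay below all wild-type arrays, with a log2 difference of -0.23 ± 0.10 (adjusted p = 0.299). Its other probe sets differed by -0.09 and -0.14 (adjusted p = 0.894 and 0.777), and the first of these turned to 0.12 without KO replicate 2.

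Pik3r1, which encodes the regulatory subunit that ties PI3K to the docking proteins, was higher on all 4 of its probe sets, 3 of which were designed from the same sequence record. The brightest, 1438682_at, read 2946, 3425 and 2880.1 in wild type and 4559, 3904, 4866 and 3289 in KO. KO replicate 4 lay below the highest wild-type array, and the other 3 KO arrays lay above all of them. The log2 difference was 0.41 ± 0.14 (95% interval 0.10 to 0.73, adjusted p = 0.17), and the other 3 differed by 0.44, 0.48 and 0.55 (adjusted p = 0.243 to 0.336). None of the 4 passed in any of the 19 alternative fits, in which the lowest adjusted p was 0.0522.

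Akt1, the broadly expressed Akt kinase, read 1943, 2471 and 1444 in wild type and 1663, 1648, 1819 and 1668 in KO on 1416657_at. The wild-type arrays enclosed the KO arrays, and the log2 difference was -0.16 ± 0.16 (adjusted p = 0.68). On 1425711_a_at the KO arrays (968 to 1049.7) lay just below the wild-type arrays (1055 to 1259), with a difference of -0.16 (adjusted p = 0.549). On 1440950_at the difference was -0.52 (adjusted p = 0.557), and KO replicate 3 alone read 55.2 against 193 to 348 on the other arrays.

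Akt2, the kinase tied most closely to insulin-stimulated glucose uptake, read 7921, 6779 and 8191 in wild type and 5335, 6782, 6261 and 6277 in KO on 1424480_s_at. KO replicate 2 overlapped wild-type replicate 3, and the other KO arrays lay below. The log2 difference was -0.31 ± 0.11 (95% interval -0.56 to -0.06, adjusted p = 0.208; -0.35 with adjusted p = 0.0919 without KO replicate 2). The other 2 probe sets differed by -0.32 and -0.11 (adjusted p = 0.439 and 0.81). The remaining Akt1 probe set, 1442759_at, read 16.8 to 35.8 and was too dim to be tested.

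**Figure D2:**
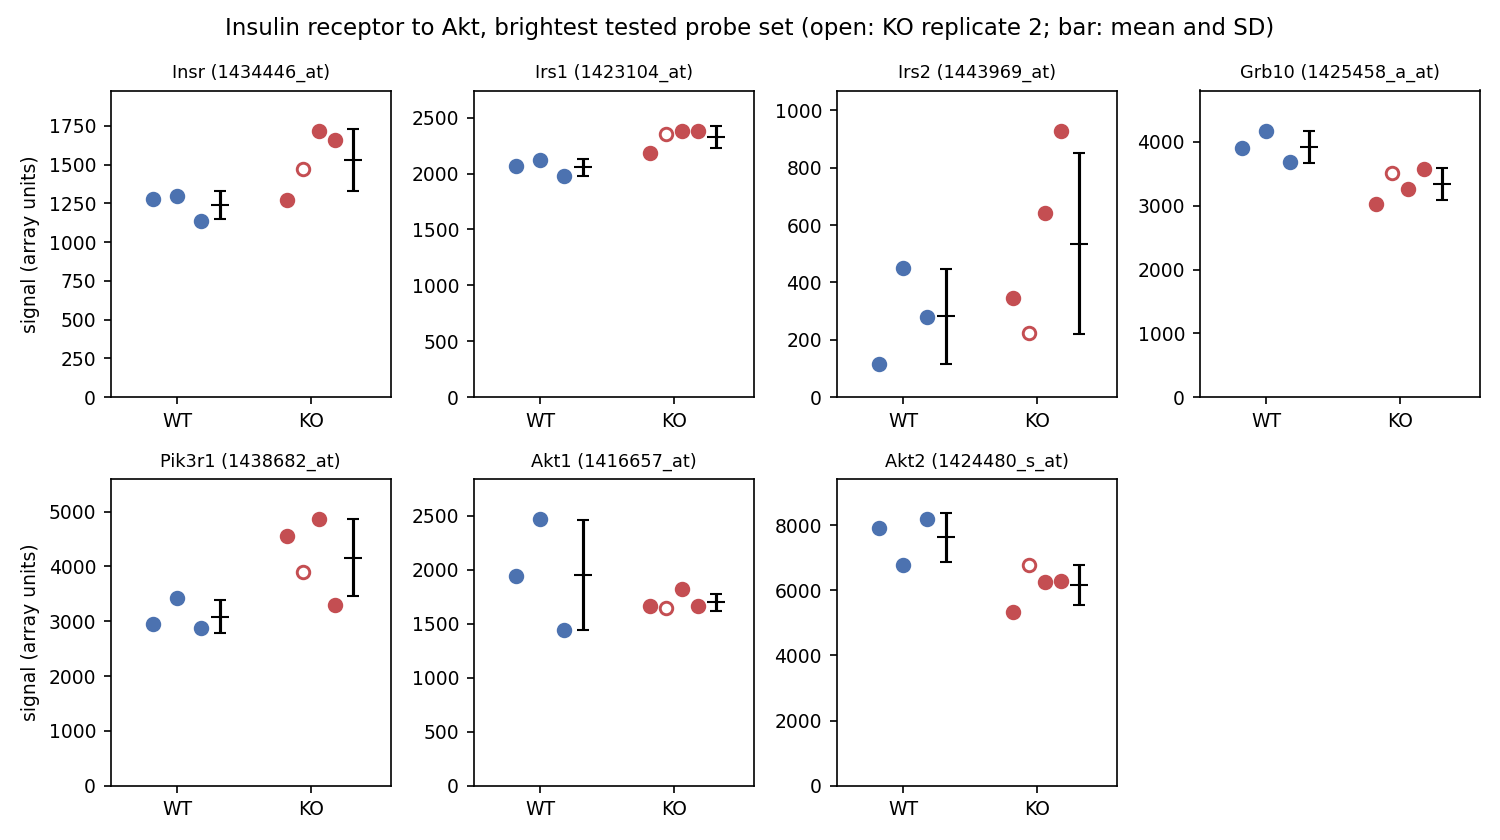
Signal (array units, linear axis from 0) of the brightest tested probe set of each gene from the receptor to Akt, on 3 wild-type arrays (blue) and 4 KO arrays (red, KO replicate 2 open), with mean and SD (black). Irs1 and Grb10 separate the genotypes by a small amount, and Irs2 ranges from 116 to 930.2.

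Foxo4, a FoxO factor whose gene lies on the X chromosome, gave the smallest p of the 24 probe sets. On 1456753_at it read 704, 679 and 671 in wild type and 1237, 1261, 1216 and 1059.9 in KO. All KO arrays lay above the wild-type arrays, which were close together. The mean rose from 685 ± 17.5 (SD, n = 3) to 1193 ± 90.9 (n = 4), a log2 difference of 0.77 ± 0.11 (limma, adjusted p = 0.0202). KO replicate 2, the array with the Xist signal, read highest of all, and without it the difference was 0.75 (adjusted p = 0.00595). The call was lost when any 1 of the other 6 arrays was left out (adjusted p = 0.058 to 0.0921) and without the mean-variance trend in the fit (0.0762). Over all probe sets 7 to 40 passed with 1 of these 6 arrays left out and 6 without the trend, against 431 in the main fit. The second Foxo4 probe set, 1422149_at, read 108 to 130 in KO and 123 to 162 in wild type, a difference of -0.20 (adjusted p = 0.681).

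Foxo3, a FoxO factor of cell survival and atrophy, rose on 1434832_at. It read 349, 340.1 and 335 in wild type and 728, 577, 549 and 596.5 in KO. All KO arrays lay well above the narrow wild-type range. The mean rose from 341 ± 7.01 (n = 3) to 613 ± 79.5 (n = 4), a log2 difference of 0.78 ± 0.14 (limma, adjusted p = 0.0298; 0.81 with adjusted p = 0.0105 without KO replicate 2). This call too was lost when any 1 of the other 6 arrays was left out (adjusted p = 0.0695 to 0.113), without the trend (0.0793), without a filter on dim probe sets (0.0551) and in the second deposit range alone (0.0684). Over all probe sets 100 passed without a filter and 726 in the second deposit range alone. The brighter probe set 1434831_a_at, designed from the same sequence record, read 578.5, 553 and 437 in wild type and 620.4, 679, 393 and 678 in KO, with a difference of 0.15 (adjusted p = 0.775). The third, 1450236_at, was too dim to be tested (14 to 55.2).

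The probe sets of Foxo3, and likewise those of Foxo4, stood apart in their calls. The log2 ratio of 1434832_at to 1434831_a_at was -0.68 to -0.36 on the wild-type arrays and -0.23 to 0.45 on the KO arrays, and that of 1456753_at to 1422149_at was 1.93 to 2.19 and 2.96 to 3.14. Neither pair of ranges overlapped. These pairs were chosen because 1 probe set of each passed and the other did not, so the ratios are a description, with no test.

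Foxo1, the FoxO factor best known from insulin action in fat and liver, was higher on 3 probe sets designed from the same sequence record, so they are not independent readings. On 1416981_at it read 1232, 1590.0 and 991 in wild type and 2759.6, 1809, 1914 and 2127 in KO. On 1416983_s_at the values were 1666, 1708 and 1504 against 3472, 2353, 2430.4 and 2200.0. On both, KO replicate 1 was the highest array and every KO array lay above every wild-type array. The log2 differences were 0.75 ± 0.18 and 0.65 ± 0.15 (adjusted p = 0.0672 and 0.0629), and neither passed with all arrays. Both passed without KO replicate 2 (0.83 and 0.70, adjusted p = 0.0256 and 0.0296). The brightest, 1416982_at, read 1674, 2254.5 and 2012 in wild type and 3619, 2295, 2361 and 2649.6 in KO, a difference of 0.44 ± 0.17 (adjusted p = 0.211). Its difference was 0.52 without KO replicate 2 (adjusted p = 0.098) and 0.30 without KO replicate 1. The fourth, 1456529_at, read 10.5 to 63.2 and was not tested.

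**Figure D3:**
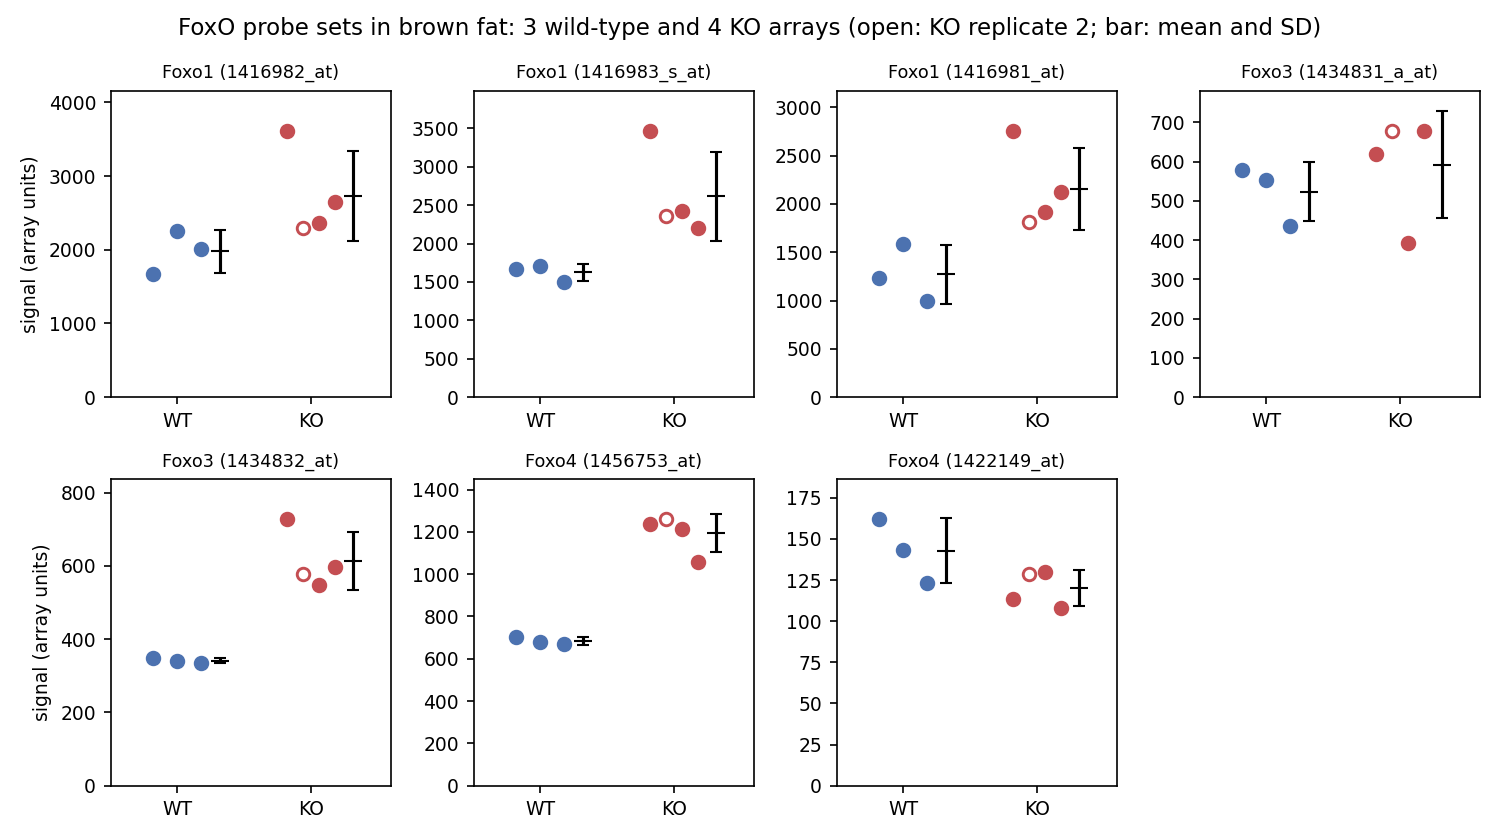
Signal (array units, linear axis from 0) of the 7 tested FoxO probe sets on 3 wild-type arrays (blue) and 4 KO arrays (red, KO replicate 2 open), with mean and SD (black). In 5 of the 7 panels every KO array lies above every wild-type array, and Foxo3 1434831_a_at and Foxo4 1422149_at are the exceptions. The 3 Foxo1 probe sets were designed from the same sequence record.

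The promoter windows of Foxo1 and Foxo3 are shown as those of the FoxO genes that were higher and have a window, with the same capitals.
Foxo1 (chr3:52268087-52268336, plus strand): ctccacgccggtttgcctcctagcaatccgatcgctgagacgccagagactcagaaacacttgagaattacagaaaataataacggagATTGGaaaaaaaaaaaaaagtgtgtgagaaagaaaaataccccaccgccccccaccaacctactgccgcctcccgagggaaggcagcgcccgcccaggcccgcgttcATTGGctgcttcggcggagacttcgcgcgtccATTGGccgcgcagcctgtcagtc
Foxo3 (chr10:42276696-42276945, minus strand): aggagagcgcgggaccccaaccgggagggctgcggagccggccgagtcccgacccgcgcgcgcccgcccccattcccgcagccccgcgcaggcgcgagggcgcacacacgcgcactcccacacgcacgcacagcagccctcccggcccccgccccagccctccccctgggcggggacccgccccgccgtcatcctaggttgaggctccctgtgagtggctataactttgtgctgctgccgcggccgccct
Foxo1 holds ATTGG at 3 places, the nearest to the start at -23 to -19, and Foxo3 holds none of the motifs searched. CCAAT or ATTGG occurs in 33.8% of all windows. GC content was 56% in the Foxo1 window and 76.4% in that of Foxo3, against a median of 52.4%.

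Of the 24 probe sets, 4 passed without KO replicate 2, all of them FoxO probe sets and all higher, when 7.35% of all tested probe sets passed in both directions and 3.14% passed higher. With the deposit range as a covariate 3 passed, those of Foxo3, Foxo4 and Irs2, all higher (2.34% of all tested in both directions, 1.25% higher). Over the 19 alternatives the log2 differences of Foxo4 1456753_at and Foxo3 1434832_at stayed at 0.72 to 0.83 and 0.69 to 0.83. Among markers of other cells, 6 of 6 neutrophil markers had positive differences (median 0.54, summed signal 5591 to 10254 in KO and 4267 to 6683 in wild type) and 6 of 6 fibroblast markers had negative ones (median -0.33, summed signal 27866 to 44509 and 42752 to 48427.0), with 0 past the threshold in each list (3 and 2 at an unadjusted p under 0.05 by limma). The 6 other marker lists had medians of -0.46 (nerve and Schwann cells, 2 tested) to 0.03 (adipocytes of any kind, 4 tested). They had 0 past the threshold on the brightest probe set and 0 to 3 at an unadjusted p under 0.05. Of all 13102 genes, 2380 had an unadjusted p under 0.05 by limma. Without KO replicate 2, when 4 FoxO probe sets passed, the fibroblast markers Fap (-1.24, adjusted p = 0.00595) and Lum (-1.17, 0.00543) and the adipocyte hormone gene Lep (-1.12, 0.0307) fell and the neutrophil marker Ngp rose (0.73, 0.0322). With the deposit range as a covariate Ngp passed again (adjusted p = 0.0455), and the Schwann cell marker S100b passed as lower in KO (0.0453). With all arrays the adipocyte marker Fabp4 passed on a less bright probe set alone (0.48, adjusted p = 0.0403). With the covariate a further less bright Fabp4 probe set passed too (0.018). Skeletal muscle markers differed between the deposit ranges. Tnnc2 read 6747 to 8717 on wild-type replicate 1 and KO replicates 1 and 2, and 2873 to 4596 on the other arrays. Tnnt3, Ckm and Myh8 also separated the ranges, and Myh3 did not. The part of any of these markers in the FoxO differences was not tested. The ratio of 3' to 5' actin probe sets, a sign of RNA quality, was 1.24 to 1.29 in wild type and 1.14 to 1.39 in KO.

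**Figure D4:**
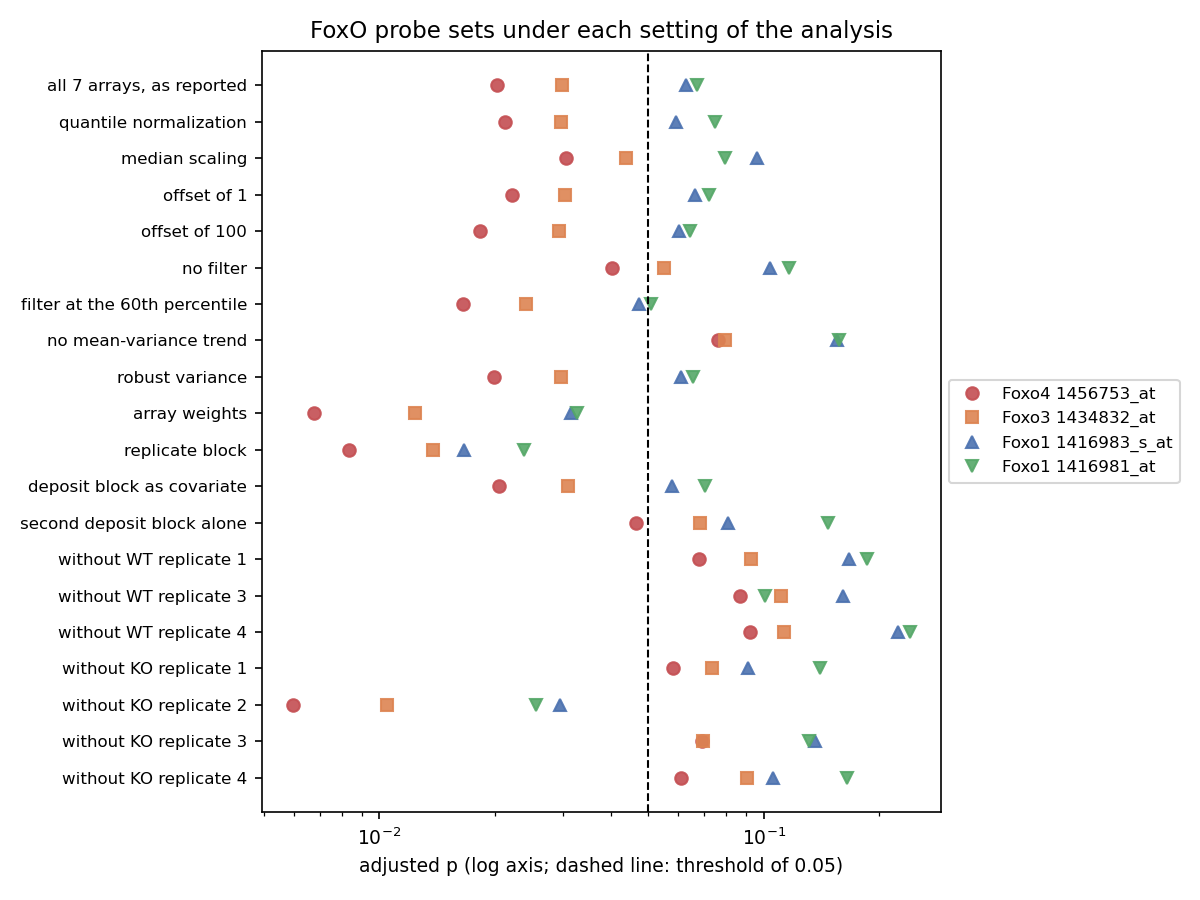
Adjusted p (log axis) of 4 FoxO probe sets under each setting of the analysis, with the threshold of 0.05 as a dashed line. Foxo4 and Foxo3 lie left of the line with all 7 arrays and right of it when an array other than KO replicate 2 is left out, and both Foxo1 probe sets lie left of it without KO replicate 2.

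Beyond these 10, 106 of 121 listed genes of the pathway had a tested probe set, and on the brightest of each 1 rose and 1 fell (median log2 difference 0.04), against 1.83% of all 13102 genes, 1.12% higher and 0.71% lower (median -0.01). Both belong to the list of phosphatases and inhibitors. Ptpn11, a phosphatase that promotes Ras signalling, rose 1.46-fold from 2964 ± 155 (n = 3) to 4345 ± 432 (n = 4; limma, adjusted p = 0.0403), though its other probe sets (0.01 and 0.52) did not pass. Trib1, a pseudokinase that directs proteins to degradation, fell 3.19-fold from 577 ± 88.7 to 172 ± 73 (adjusted p = 0.0332), while its other probe set differed by -0.01. Its relative Trib2 was 1.79-fold lower (adjusted p = 0.0574) and passed without KO replicate 2 (adjusted p = 0.00384). The receptors (5 tested), docking proteins and adaptors (16), PI3K subunits (9), Akt to mTOR kinases and targets (23), Ras and MAP kinases (7), metabolic effectors (13) and FoxO regulators (16) had 0 past the threshold on the brightest probe set. At an unadjusted p under 0.05 by limma they had 2, 4, 1, 2, 0, 3 and 8, against 2380 of all 13102 genes.

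Within those lists the smallest p-values belonged to a few genes each, none of which passed with all arrays on its brightest probe set. Igf1r, the receptor of insulin-like growth factor, was 1.37-fold higher (552 ± 79.7 to 765 ± 37.5, adjusted p = 0.115) and Furin, which cleaves the insulin receptor precursor, 1.26-fold higher (0.175). Ide, the insulin-degrading enzyme, differed by -0.14 (0.58). The adaptor genes Sh2b1 (0.50, adjusted p = 0.0919), Sos1 (0.39, 0.182) and Irs3 (0.42, 0.274) had positive log2 differences. Among PI3K subunits Pik3r3 was 1.43-fold lower (502 ± 21.1 to 347 ± 66.2, adjusted p = 0.151), so that 2 regulatory subunit genes, Pik3r1 and Pik3r3, had differences of opposite sign, while Pik3c3 (0.26) and Pik3cb (-0.29) lay nearer to 0. Eif4ebp1, the translation repressor that mTOR inactivates, was 1.43-fold higher (9121 ± 999 to 13041 ± 1187, adjusted p = 0.0521), with Prkci at 0.30 and Deptor at 0.34. Eif4e, the cap-binding protein that Eif4ebp1 holds back, fell on 1423220_at (-0.84, adjusted p = 0.0315) but differed by 0.08 on its brightest probe set. The MAP kinase genes with the smallest p were Nras (-0.29), Braf (0.14) and Dusp6 (-0.12).

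Among metabolic effectors, the glucose transporter gene Slc2a1 was 1.75-fold higher (355 ± 97.6 to 655 ± 211, adjusted p = 0.135), Pde3b, the phosphodiesterase by which insulin restrains lipolysis, 1.32-fold higher (0.139) and the hexokinase gene Hk2 1.36-fold higher (0.176). Of genes that modify FoxO proteins, the 14-3-3 gene Ywhaz, whose product keeps phosphorylated FoxO in the cytoplasm, was 1.38-fold lower (4430.3 ± 32.5 to 3244 ± 582, adjusted p = 0.108). The acetyltransferase gene Crebbp was 1.43-fold higher (adjusted p = 0.113) and the deacetylase gene Sirt1 1.35-fold higher (0.143). Without KO replicate 2, 9 genes of all these lists rose and 5 fell, when 8.38% of all genes passed, 3.39% higher and 4.99% lower. Those that rose were Eif4ebp1, Pde3b, Ptpn11, Hk2, Crebbp, Sh2b1, Sirt1, Slc2a1 and Trib3, and those that fell were Ywhaz, Gys1, Grb14, Trib2 and Trib1.

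**Figure D5:**
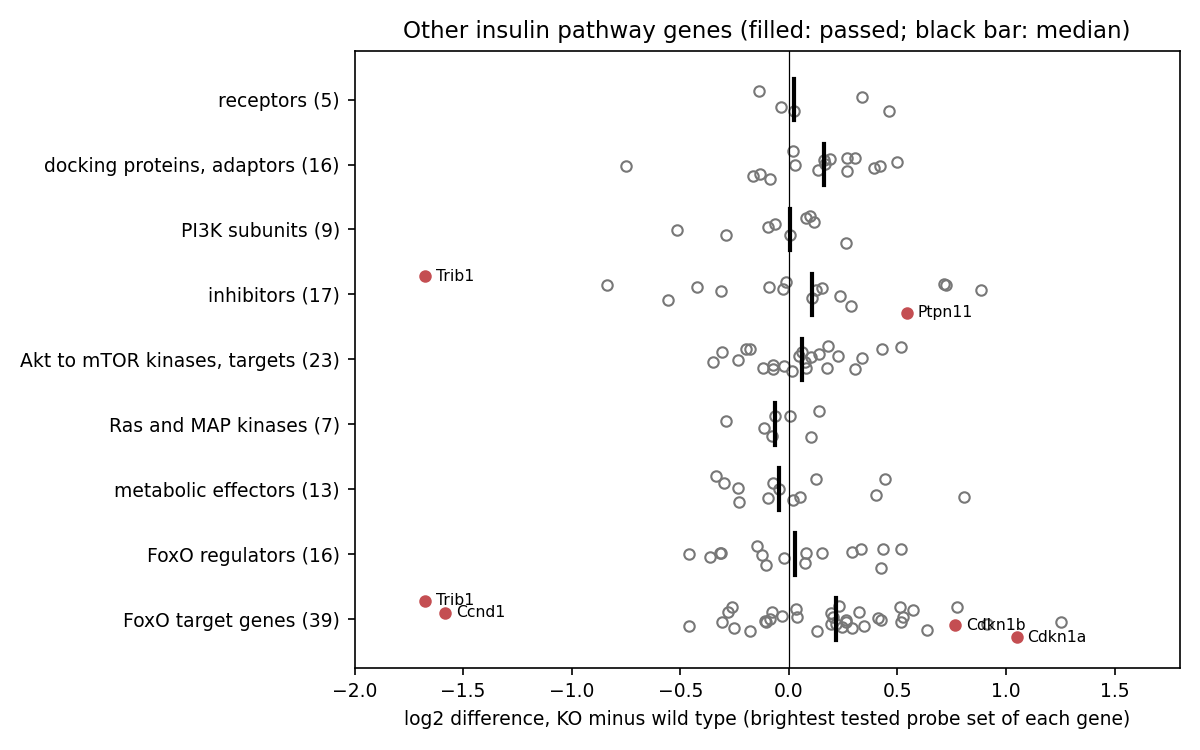
Log2 difference, KO minus wild type, of each listed gene on its brightest tested probe set, by list (number of genes in brackets), with the list's median as a black bar and genes that passed filled. The FoxO target genes have the highest median (0.22), with Trib1 and Ccnd1 lowest (-1.67 and -1.58) and Cdkn1b and Cdkn1a among the higher ones.

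Genes described as FoxO targets, Insr and Irs2 left out, had 39 of 40 tested, with a median log2 difference of 0.22 and 26 positive differences (50.1% of all tested probe sets). At an unadjusted p under 0.05 by limma there were 18 of the 39, against 2380 of all 13102 genes. As the list was chosen with earlier results known, these counts are a description. On the brightest probe set 2 rose and 2 fell, against 1.83% of all genes, and 11 had KO arrays all above wild type (8.33% of all genes) and 2 all below (8.37%). The cell cycle inhibitor genes rose: Cdkn1b, which encodes p27, from 704 ± 127 (n = 3) to 1206 ± 37.3 (n = 4; limma, adjusted p = 0.0277) and Cdkn1a, which encodes p21, from 2749 ± 429 to 5802 ± 1399 (adjusted p = 0.0277). The less bright Cdkn1a probe set was 0.80 higher and did not pass (adjusted p = 0.0646). Ccnd1, a cyclin gene that FoxO factors are described as repressing, fell 2.99-fold from 2288 ± 104 to 784 ± 325 (adjusted p = 0.0199), on 3 of 3 probe sets. Trib1, above, was the other that fell. Cited2, a transcriptional coregulator, passed on its less bright probe set (0.93, adjusted p = 0.0317) and was 0.91 higher on the brightest (0.0604).

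With the deposit range as a covariate the same counts, 2 and 2, passed, as did 1 and 1 of the pathway genes (2.61% of all genes). Without KO replicate 2, 9 FoxO target genes rose and 3 fell, when 3.39% of all genes passed higher and 4.99% lower. The muscle atrophy gene Fbxo32 was at 268 ± 38.6 in KO against 145 ± 33.3 with all arrays (adjusted p = 0.0746) and passed without it (adjusted p = 0.0284). Ccng2, a cyclin of cell cycle exit, did likewise (3402 ± 741 against 2240.0 ± 128, adjusted p = 0.104 and 0.0128), as did the autophagy gene Map1lc3b (adjusted p = 0.133 and 0.0132), Bcl6 (0.108 and 0.0485) and the catalase gene Cat (0.19 and 0.0286). Ccnd2 fell without it (-0.63, adjusted p = 0.0171). These were named after their values were seen. Leaving out KO replicate 1 left 2 targets and 1 pathway gene past the threshold, when 40 of all tested probe sets passed, against 431 with all arrays. Leaving out any 1 of the other 5 arrays, KO replicate 2 kept, left 0 of either, when 7 to 25 of all tested probe sets passed. Some glucocorticoid-responsive genes are also on the target list, Cdkn1a among them. Of the glucocorticoid-responsive genes, 8 of 17 rose and 0 fell with all arrays (median 0.88), against 1.12% and 0.71% of all genes. Without KO replicate 2, 13 of 17 rose and 0 fell. Their part in the differences of the FoxO genes was not tested.

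The genes whose pattern over the 7 arrays was most like that of Insr were Aup1, Rabgap1 and Fkbp15 (Pearson r of log2 values 0.984, 0.982 and 0.98, brightest probe sets). Those most like Irs2 were Med25, Spred2 and Zbtb12 (0.992, 0.985 and 0.975). Those most like Foxo1 were Timp3, Slc35b2 and Lrp12 (0.98, 0.979 and 0.976). With 7 arrays such values are common: 68, 96 and 89 genes reached an r of 0.9 with Insr, Irs2 and Foxo1, and the arrays share genotype and deposit range. None of the 9 genes passed the test between genotypes.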

How the data were processed

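For every array the authors deposited 1 linear signal intensity per probe set. The submitters' processing notes name GCOS 1.2. Neither the scaling nor the genome build is given in the sources used here, but trimmed means (2% at each end) of all arrays were 497 to 498, and this scaling was kept. Of 45101 probe sets 64 controls were left out. The platform's annotation pairs 34945 of the rest with a single gene, 932 with several and 9160 with none.

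An offset of 30.6, the 20th percentile of all values, was added before taking log2, which understates the change of dim probe sets. A filter on the mean over all arrays, blind to genotype, dropped probe sets below the 40th percentile of it and kept 27022. Genotypes (4 KO, 3 wild-type arrays) were compared by a two-sided test in limma 3.58.1 under R 4.3.3, its variances moderated with a mean-variance trend, with Benjamini-Hochberg adjustment over all tested probe sets and no covariate. The fit was also run on simulated data with no deviant array and no deposit ranges, so that run does not bear on the reported calls. Where an array was left out, offset and filter stayed as set on all 7. The brightest probe set of a gene is that with the highest mean log2 value. Beside the 10 genes, the text names from the pathway and FoxO target lists the genes that passed and the 3 with the smallest p. It also names 3 genes most like Insr, Irs2 and Foxo1. Glucocorticoid-responsive genes are counted as a list, and markers are named in part. The members and lists were chosen with earlier results of these data known. The alternatives were other scalings, offsets, filters, variance models and array weights, the replicate number or deposit range as a block, 1 probe set per gene, and leaving out each array.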

Additional observations from a re-analysis of the deposited data

Results flagged for a closer look

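In 6 of the 24 tested probe sets 1 of the 4 KO arrays stood far from the others on the log2 scale, by a gap larger than Dixon's 95% limit for 4 values, as a share of the KO range. Chance gives this in about 1 in 20 groups. The gap was 0.859 of the range for KO replicate 1 of Irs1 1423104_at, which read lower than the other KO arrays, and 0.856 for KO replicate 2 of Grb10 1425457_a_at, which read 179 against 332 to 367. The other 4 concerned KO replicate 3: Akt1 1416657_at (0.876, the highest KO array), Akt1 1440950_at (0.851, 55.2 against 209 to 255), Akt2 1421324_a_at (0.981, 2412 against 1854 to 1863) and Foxo3 1434831_a_at (0.832, 393 against 620.4 to 679). None of these 6 probe sets passed the test between genotypes.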

How the results depend on the processing

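Over all probe sets 431 passed, 2 of them among the 10 genes, with 2 other insulin pathway genes and 4 FoxO target genes. Median scaling gave 235 and, of pathway genes, 1. Without a filter on dim probe sets 100 passed, 1 of the 10 genes' probe sets, 0 pathway genes (26 at an unadjusted p under 0.05) and 2 targets, and a filter at the 60th percentile gave 4 pathway genes. Without the mean-variance trend 6 passed and 0 in each of the other counts (limma; 6, 22 and 15 at an unadjusted p under 0.05). Array weights gave 1312, 4, 7 and 9. The second deposit range alone gave 726, 1 and, of pathway genes, 4, and 1 probe set per gene 270 and 1. With the replicate number as a block, in which KO replicate 2 has no partner and drops out, 2183, 5, 11 and 14 passed. Deviations of same-numbered arrays from their group means correlated at 0.06, 0.15 and 0.11, and those of other pairs at -0.17 to 0.18. Such deviations centre the correlations near 0, so they cannot settle whether the numbers pair the samples. The main fit left pairing out. Leaving out 1 array gave 7 to 1986 over all probe sets, 0 to 4 of the 10 genes' probe sets, 0 to 14 pathway genes and 0 to 12 targets, the highest counts without KO replicate 2 and the lowest count over all probe sets without wild-type replicate 4. Of 463 alternative values of the 24 probe sets, 16 lost a call, 9 gained one and 0 reversed a called direction. Among 415 past the threshold in neither setting, 4 changed sign. The deposited values used here hold no detection calls, so probe sets near background could not be told from absent ones.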

Other observations

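A further probe set, 1444226_at, is paired with both Foxo3 and Gm38485 and was therefore not counted among those of Foxo3. It read 75.1, 114 and 122 on wild-type replicates 1, 3 and 4 and 137, 112, 190.0 and 208 on KO replicates 1 to 4.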
